A study of Homo sapiens with 8 samples.

Results

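The 36 genes described here encode the factors that start translation of messenger RNA in human cells. They were taken by gene symbol from a given list of initiation factors, and all 36 were found among the 58395 genes of each count table. By complex they comprised 3 genes of eIF1 and eIF1A, 3 of eIF2, 5 of eIF2B, 13 of eIF3, 8 of the eIF4 group, and 4 genes for eIF5, eIF5A, eIF5B and eIF6. All 36 also passed the filter on low counts, as did 16503 genes in all. RNA had been sequenced from OCI-AML3, an established human acute myeloid leukaemia cell line, after infection with lentiviral short hairpins. Polysome RNA came from sucrose gradient fractions and input RNA from the same cleared lysate before the gradient. The 8 libraries formed 4 groups of 2, namely polysome RNA labelled FBL knockdown, polysome RNA labelled control (genotype WT, which per the protocols carried a control hairpin), input RNA labelled FBL knockdown, and input RNA labelled control. All cells had been given cycloheximide, which holds ribosomes on their mRNAs, at 100 µg/mL for 15 min. The gradients ran from 10% to 50% sucrose and were collected in 14 fractions, and the sources used here do not state which of them were pooled as polysome RNA. The study concerns fibrillarin (FBL), the nucleolar enzyme that methylates ribosomal RNA, and its role in translation in leukaemia cells.

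Gene counts came to 22171255 to 43118190 per library, of which the initiation factors held 0.787% to 0.862%. FBL was examined first. Levels are given in CPM, counts scaled to the same library total by the TMM method, which removes differences in depth. FBL had 498.5 and 165 CPM in the polysome libraries labelled knockdown, and 498 and 163 CPM in the polysome libraries labelled control. In input RNA it had 253 and 84.2 CPM in the libraries labelled knockdown, and 249.9 and 88.1 CPM in those labelled control. FBL was therefore not lower under the knockdown label, at a log2 fold change of -0.01 in input RNA with a standard error (SE) of 0.69, while in each group library 2 held less FBL than library 1. For that reason the groups are called by their labels throughout, and no direction below can be read as an effect of FBL loss. The myeloid genes SPI1, CEBPA and ANPEP were present at over 100 CPM in all 8 libraries, MPO stayed at 0 to 3.72 CPM, and KIT had no read in 7 libraries. Among marker genes of lymphoid, erythroid and megakaryocyte cells, CD3E, CD3D, MS4A1, GATA1 and PF4 had no read, and NKG7 reached at most 5.64 CPM. CD14, a monocyte gene, had 52.4 and 65.3 CPM in polysome RNA labelled knockdown, against 30.6 and 22.7 CPM in polysome RNA labelled control. In input RNA it had 41.2 and 38.2 CPM in libraries labelled knockdown, against 20.9 and 21.9 CPM in those labelled control, and its part in the comparisons of the labels was not tested.

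Initiation begins when eIF2, bound to GTP, brings the initiator tRNA to the small ribosomal subunit, where eIF1, eIF1A, eIF3 and eIF5 also sit. The eIF4F factors, a cap-binding protein, a helicase and a scaffold, load that subunit onto a capped mRNA, and it then scans to the start codon. eIF5B helps the large subunit to join, and eIF2B recharges eIF2 with GTP for the next round. Several of these genes are known to be under translational control themselves.

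Levels were compared between genes as CPM per kilobase of exon not shared with another gene, a scale that depends on how many exons the annotation lists. EIF5A, whose product carries the amino acid hypusine and helps ribosomes through difficult peptide bonds, was highest at a mean of 356 in input RNA labelled knockdown and 334 in input RNA labelled control. EIF3I, a WD-repeat subunit of eIF3, followed at 144 and 138 on the same scale. EIF1, EIF3G, EIF3E, EIF5B, EIF6 and EIF3K lay at 88.5 to 116 over the group means of input RNA, and their order among themselves was not the same under both labels. At the low end, beside the uncertain EIF3C and EIF4A1, EIF2B2 averaged 1.04 in input RNA labelled knockdown and 1.01 in input RNA labelled control, and EIF4E averaged 2.66 and 2.57.

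The counts of 5 genes were treated as uncertain. EIF4A1, the main helicase gene, had 12 to 187 reads per library, 86.8% of its coding bases lie inside exons annotated to another gene, and its 13 named pseudogenes held 375 to 1000 reads per library. EIF3C has a near-identical copy, EIF3CL, which had 208 reads in input library 1 labelled control and 3518 in input library 2 labelled control. EIF3L, EIF5A and EIF6 share 36.4%, 37.2% and 33.3% of their coding bases with exons of another gene. Smaller shares, 21.7% in EIF4B, 17.8% in EIF4E, 15.0% in EIF2B2 and 10.2% in EIF3M, were not set apart. Reads shared by overlapping genes or copies cannot be assigned with certainty.

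Positions are given on GRCh38 for the genes on which the results turn most. GENCODE v29 places EIF4G1 (ENSG00000114867) at chr3:184314495-184335358 on the plus strand and EIF4A2 (ENSG00000156976) at chr3:186783205-186789900 on the plus strand. It places EIF5B (ENSG00000158417) at chr2:99337353-99401326 on the plus strand, EIF3A (ENSG00000107581) at chr10:119033670-119080823 on the minus strand and EIF6 (ENSG00000242372) at chr20:35278911-35284985 on the minus strand.

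Polysome RNA was first set against input RNA, over both labels, to see which initiation factor mRNAs were over- or under-represented on polysomes relative to the other genes. Of the 36 members, 12 were higher and 15 lower in polysome RNA at an adjusted p under 0.05, by edgeR's quasi-likelihood test with Benjamini-Hochberg adjustment over all genes. Across all genes tested, 42.9% were called, 20% higher and 22.8% lower. The members' median log2 fold change of -0.08 stood beside -0.22 for all genes. That order turned when only genes averaging 10 CPM or more were kept. The 32 members in that set had a median of -0.18, beside -0.015 for all its genes. There 12 members were higher and 15 lower, while 69.7% of all its genes were called. The members thus split in both directions, and genes of the same complex lay on opposite sides. Corrected for GC content and transcript length, as described further on, the split was 14 higher and 6 lower, beside 11.8% and 15.9% of all genes. Within the lysates labelled knockdown 12 were higher and 8 lower, beside 28.5% of all genes called, and within those labelled control 11 were higher and 10 lower, beside 29.1%. With the lysate kept as a block these counts were 12 and 11 under the knockdown label, beside 34.9% of all genes, and 12 and 13 under the control label, beside 35%. Of all 36 members, called or not, 14 lay above 0 in all 4 lysates, 17 lay below 0 in all and 5 had mixed signs. All 27 called members had the same sign in each of the 4 lysates. The calls were made from these same lysates, so that agreement is no separate support. With the lysate kept as a block, the 27 calls stayed and 4 were added, EIF2S1, EIF3F and EIF4E as lower and EIF4G2 as higher, beside 45.1% of all genes called (21.3% higher and 23.8% lower). Leaving out each of the 8 libraries in turn kept the call of 23 of the 27. These values are shares of each library, so more RNA of one gene and less of all others cannot be told apart, and in bulk samples neither can fewer cells of a type and less RNA per cell.

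**Figure D1:**
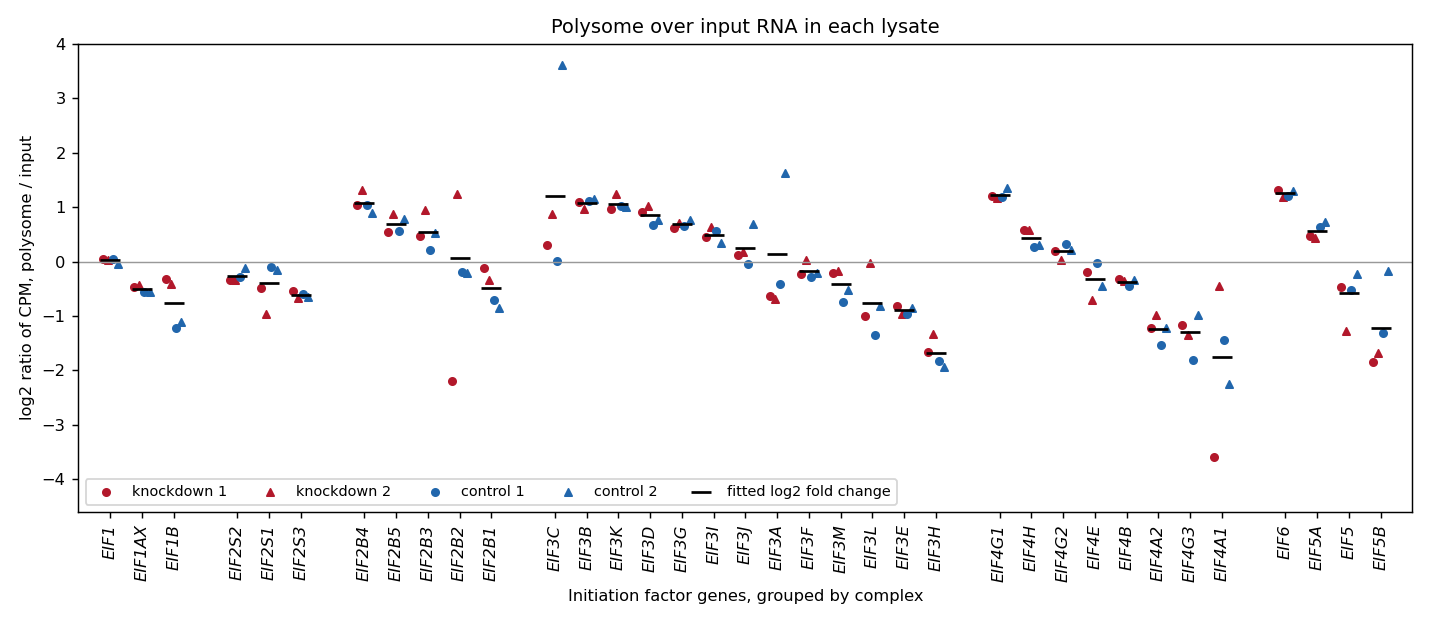
Log2 ratio of CPM in polysome RNA over input RNA for the 36 genes, grouped by complex, with a red point for each lysate labelled knockdown, a blue point for each lysate labelled control (circle for number 1, triangle for number 2) and a black bar for the fitted log2 fold change. EIF6 and EIF4G1 lie at 1.25 and 1.23, EIF3H at -1.69, and EIF3C, EIF3A, EIF2B2 and EIF4A1 spread widely between lysates.

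Among the eIF1 and eIF1A genes, 2 of 3 were lower in polysome RNA. The product of EIF1 guards start codon choice and is known to regulate translation of its own mRNA. EIF1 had 409 and 407 CPM in polysome RNA labelled knockdown and 377 and 377 CPM in polysome RNA labelled control. In input RNA it had 395 and 397 CPM in libraries labelled knockdown and 363 and 388 CPM in those labelled control. Its polysome and input values thus overlapped, at a log2 fold change of 0.02 (SE 0.06; edgeR adjusted p = 0.785). EIF1B, the close paralog of EIF1, had 18.2 and 18.1 CPM in polysome RNA labelled knockdown and 11.02 and 11.5 CPM in polysome RNA labelled control, against 22.8 and 24.1 CPM in input RNA labelled knockdown and 25.6 and 24.9 CPM in input RNA labelled control. Every polysome library lay below every input library for EIF1B, whose log2 fold change was -0.77 (SE 0.13; edgeR adjusted p = 0.00105). EIF1AX, the eIF1A gene on the X chromosome, was lower by a log2 fold change of -0.50, which turned to 0.32 with the GC and length correction.

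All 3 subunit genes of eIF2 lay below 0 and 2 passed the test, although EIF2S2 was at 0.034 with the GC and length correction. EIF2S3, the GTP- and tRNA-binding gamma subunit, had 148 and 131 CPM in polysome RNA labelled knockdown and 155 and 128 CPM in polysome RNA labelled control, against 217 and 208 CPM in input RNA labelled knockdown and 233 and 201 CPM in input RNA labelled control. No polysome library reached the lowest input library, and the log2 fold change was -0.61 (SE 0.09; edgeR adjusted p = 3.96e-04). EIF2S2, the beta subunit, had 190.5 and 162 CPM in polysome RNA labelled knockdown and 196 and 193 CPM in polysome RNA labelled control, against 242 and 203 CPM in input RNA labelled knockdown and 238 and 209.5 CPM in input RNA labelled control. The ranges did not overlap, and the log2 fold change of -0.27 (SE 0.09; edgeR adjusted p = 0.0337) was the smallest of the called ones. It lost the call without polysome library 2 labelled knockdown, either polysome library labelled control, input library 1 labelled knockdown or input library 1 labelled control, at log2 fold changes of -0.28 to -0.22 and edgeR adjusted p of 0.0665 to 0.0903. EIF2S1, the alpha subunit that stress kinases phosphorylate, had a log2 fold change of -0.40 (edgeR adjusted p = 0.0946), and with the lysate block it was -0.42 at an adjusted p of 0.00213. It was also called without the filter on low counts, at -0.43, and at a mean of at least 10 CPM, at -0.51. The same held without polysome library 1 labelled knockdown, at -0.66, and without input library 2 labelled knockdown, at -0.53.

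The eIF2B genes split. EIF2B3, EIF2B4 and EIF2B5 were higher in polysome RNA, EIF2B1 was lower and EIF2B2 was not called. EIF2B3 and EIF2B5 encode the catalytic gamma and epsilon subunits, and EIF2B1, EIF2B2 and EIF2B4 the regulatory alpha, beta and delta subunits. EIF2B4 had 142 and 172 CPM in polysome RNA labelled knockdown and 137 and 129 CPM in polysome RNA labelled control, against 68.8 and 69.3 CPM in input RNA labelled knockdown and 66.4 and 69.3 CPM in input RNA labelled control. All polysome values of EIF2B4 stood clear above the input values, at a log2 fold change of 1.07 (SE 0.09; edgeR adjusted p = 7.92e-06). EIF2B1 had 49.3 and 36.2 CPM in polysome RNA labelled knockdown and 35.1 and 29.7 CPM in polysome RNA labelled control, against 53.4 and 45.6 CPM in input RNA labelled knockdown and 57.2 and 53.7 CPM in input RNA labelled control. For EIF2B1 a single polysome library reached the range of the input libraries, and the log2 fold change was -0.49 (SE 0.13; edgeR adjusted p = 0.0116). EIF2B5 rose by 0.69 and EIF2B3 by 0.54 on the log2 scale. EIF2B2 was thinly covered, with 34 and 212 reads in the polysome libraries labelled knockdown, and its log2 fold change of 0.07 became -1.20 (edgeR adjusted p = 0.0102) without polysome library 2 labelled knockdown.

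The eIF3 genes gave 5 higher and 4 lower of 13. Those higher were EIF3B at 1.08, EIF3K at 1.06, EIF3D at 0.85, EIF3G at 0.68 and EIF3I at 0.49 on the log2 scale, which include all 3 genes of the b, g and i subunits that form a mobile module of the complex. EIF3B, the scaffold of that module, had 823 and 764 CPM in polysome RNA labelled knockdown and 1034 and 942.5 CPM in polysome RNA labelled control, against 386 and 389 CPM in input RNA labelled knockdown and 481 and 425 CPM in input RNA labelled control. Its polysome values lay far above all input values (SE 0.07; edgeR adjusted p = 2.58e-06). EIF3K, a small subunit of the core, averaged 541 ± 62.3 CPM in polysome RNA labelled knockdown and 509 ± 12.4 CPM in polysome RNA labelled control, against 251 ± 4.81 CPM and 251 ± 3.57 CPM in the input libraries under the same labels (SD, n = 2 each). EIF3D, the subunit that can bind the cap of some mRNAs, averaged 595 ± 36.7 CPM in polysome RNA labelled knockdown and 517.5 ± 27.1 CPM in polysome RNA labelled control, against 303 ± 3.17 CPM and 313 ± 1.51 CPM in input RNA under the same labels (SD, n = 2 each).

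EIF3H, EIF3E, EIF3L and EIF3M were lower in polysome RNA, and all 4 encode subunits of the core to which EIF3K also belongs. EIF3H had 152 and 176 CPM in polysome RNA labelled knockdown and 128 and 114 CPM in polysome RNA labelled control, against 482 and 445 CPM in input RNA labelled knockdown and 454 and 436 CPM in input RNA labelled control. The polysome and input ranges of EIF3H lay far apart, at a log2 fold change of -1.69 (SE 0.08; edgeR adjusted p = 1.01e-06). EIF3E, also known as INT6, had 372 and 357 CPM in polysome RNA labelled knockdown and 280.4 and 287 CPM in polysome RNA labelled control, against 655 and 693.5 CPM in input RNA labelled knockdown and 545 and 519 CPM in input RNA labelled control. Every polysome library was below every input library for EIF3E, and the log2 fold change was -0.90 (SE 0.06; edgeR adjusted p = 3.53e-06), against -0.073 (adjusted p = 0.465) with the GC and length correction. EIF3M was lower by a log2 fold change of -0.41, which turned to 0.20 with the GC and length correction. EIF3L, at 5.04 to 15.5 CPM, was at -0.76 with an edgeR adjusted p of 0.0485. The call on EIF3L was lost without either polysome library labelled control, either input library labelled knockdown, polysome library 1 labelled knockdown or input library 1 labelled control, at -0.82 to -0.53. It was also lost with relative log expression normalization (-0.72) and with upper quartile normalization (-0.75).

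The other 4 eIF3 genes were not called. EIF3C, the scaffold with the near-identical copy, had 3.20 and 4.34 CPM in polysome RNA labelled knockdown and 4.40 and 15.3 CPM in polysome RNA labelled control, against 2.58 and 2.38 CPM in input RNA labelled knockdown and 4.34 and 1.25 CPM in input RNA labelled control. It showed the largest fitted value of the complex at a log2 fold change of 1.21, with an SE of 0.48 (edgeR adjusted p = 0.0676). EIF3C was called by DESeq2 (1.24) and by edgeR without the filter on low counts (1.18). It was also called by edgeR without polysome library 1 labelled control (1.52) or input library 1 labelled control (1.76). EIF3A, the largest subunit, depended on polysome library 2 labelled control, as described with the comparison of the labels. EIF3F was at -0.18 and was called lower when lysates were blocked (edgeR adjusted p = 0.0399). The same held at a mean of at least 10 CPM (-0.28) and without polysome library 2 labelled knockdown (-0.23). EIF3J, a loosely bound subunit, was at 0.24, and was called without polysome library 1 labelled control (0.36).

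In the eIF4 group 2 of 8 genes were higher and 4 lower, with both directions among the scaffold genes. EIF4G1, the main scaffold of eIF4F, had 639.6 and 691 CPM in polysome RNA labelled knockdown and 710.1 and 726 CPM in polysome RNA labelled control, against 277 and 308 CPM in input RNA labelled knockdown and 312 and 285 CPM in input RNA labelled control. All polysome libraries held more than any input library, at a log2 fold change of 1.23 (SE 0.07; edgeR adjusted p = 1.83e-06). EIF4G3, the second scaffold gene, was at -1.30 (SE 0.15; edgeR adjusted p = 7.12e-05), averaging 30.6 ± 3.25 CPM in polysome RNA labelled knockdown and 27.3 ± 9.13 CPM in polysome RNA labelled control, against 73.0 ± 1.10 CPM and 69.6 ± 4.59 CPM in input RNA under the same labels (SD, n = 2 each). EIF4A2, the second helicase gene, had 77.8 and 89.9 CPM in polysome RNA labelled knockdown and 54.3 and 60.5 CPM in polysome RNA labelled control, against 182 and 178 CPM in input RNA labelled knockdown and 158 and 141 CPM in input RNA labelled control. Its groups did not overlap, and the log2 fold change was -1.24 (SE 0.09; edgeR adjusted p = 3.70e-06).

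EIF4A1 had 0.334 and 1.74 CPM in polysome RNA labelled knockdown and 1.36 and 1.08 CPM in polysome RNA labelled control, against 4.03 and 2.38 CPM in input RNA labelled knockdown and 3.69 and 5.08 CPM in input RNA labelled control. Those few reads gave a log2 fold change of -1.75 (SE 0.55; edgeR adjusted p = 0.0268), which is a statement on the reads left to the gene rather than on all of its mRNA. The call was lost without polysome library 2 labelled control, input library 1 labelled knockdown or either input library labelled control, at -1.88 to -1.55. Of the helicase cofactors, EIF4H was higher at 0.43 and EIF4B lower at -0.37. EIF4E, the cap-binding protein gene, was at -0.31 (edgeR adjusted p = 0.195) and was called with the lysate as a block, at -0.34, and without polysome library 1 labelled knockdown, at -0.51. EIF4G2, a scaffold homologue that lacks the eIF4E-binding site, was at 0.20 (edgeR adjusted p = 0.0874) and was called with the block, at 0.19, with relative log expression, DESeq2 and limma-voom, at 0.20 to 0.23, and without polysome library 2 labelled knockdown, at 0.26.

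The genes of the late steps went both ways. EIF6, which keeps the large subunit from joining too early and takes part in making it, had 315 and 287 CPM in polysome RNA labelled knockdown and 300.3 and 316 CPM in polysome RNA labelled control, against 126 and 126 CPM in input RNA labelled knockdown and 131 and 129 CPM in input RNA labelled control. It had the highest called log2 fold change of the 36, 1.25 (SE 0.07; edgeR adjusted p = 1.54e-06), and the polysome and input ranges lay far apart. EIF5A was higher at 0.56 (SE 0.06; edgeR adjusted p = 3.69e-05). EIF5B, the GTPase that joins the subunits, had 195 and 228 CPM in polysome RNA labelled knockdown and 315 and 618 CPM in polysome RNA labelled control, against 699 and 730.4 CPM in input RNA labelled knockdown and 787.5 and 699 CPM in input RNA labelled control. All polysome libraries were lower than the input libraries, and the log2 fold change was -1.21 (SE 0.17; edgeR adjusted p = 2.82e-04). EIF5, the GTPase-activating protein of eIF2, was at -0.58 (edgeR adjusted p = 0.0267), and at -0.51 (adjusted p = 0.0853) without polysome library 1 labelled control.

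The base composition of the transcripts moved with these directions. The 12 genes higher in polysome RNA had a GC content of 48.8% to 60.3% in their longest coding transcript, with a median of 54.7%. The 15 lower genes had 35.2% to 49.6%, with a median of 42.7%, and the 9 genes not called had a median of 43.1%. Across the 36 members, GC content and log2 fold change had a Pearson correlation of 0.71 and a Spearman correlation of 0.71, beside 0.39 and 0.57 across 13085 protein-coding genes of the same libraries. These are descriptions across genes that share their libraries. When the counts of each library were corrected for GC content and transcript length, a choice made after seeing the data, 14 members were higher and 6 lower instead of 12 and 15. Of the original calls 10 of 12 higher and 6 of 15 lower genes kept theirs, the 6 being EIF3H, EIF4A1, EIF4A2, EIF4B, EIF4G3 and EIF5B. The calls of EIF3G and EIF5A as higher and of EIF1B, EIF2S2, EIF2S3, EIF2B1, EIF3E, EIF3L, EIF3M and EIF5 as lower were lost. EIF3L kept its size, at -0.80 (edgeR adjusted p = 0.0510), while EIF3G was at 0.21, EIF5A at 0.18 and the other 7 lay between -0.25 (EIF5) and 0.20 (EIF3M). EIF1AX was called higher instead (edgeR adjusted p = 0.0487), as were EIF1, EIF3J and EIF4G2. The correction with the lysate as a block gave 17 higher and 7 lower, beside 14% and 18.7% of all genes. In that fit EIF3G, EIF5A and EIF3L were called in their first direction again, and EIF3M was called higher. GC content differs between the genes themselves, and its part in the polysome values was not tested.

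**Figure D2:**
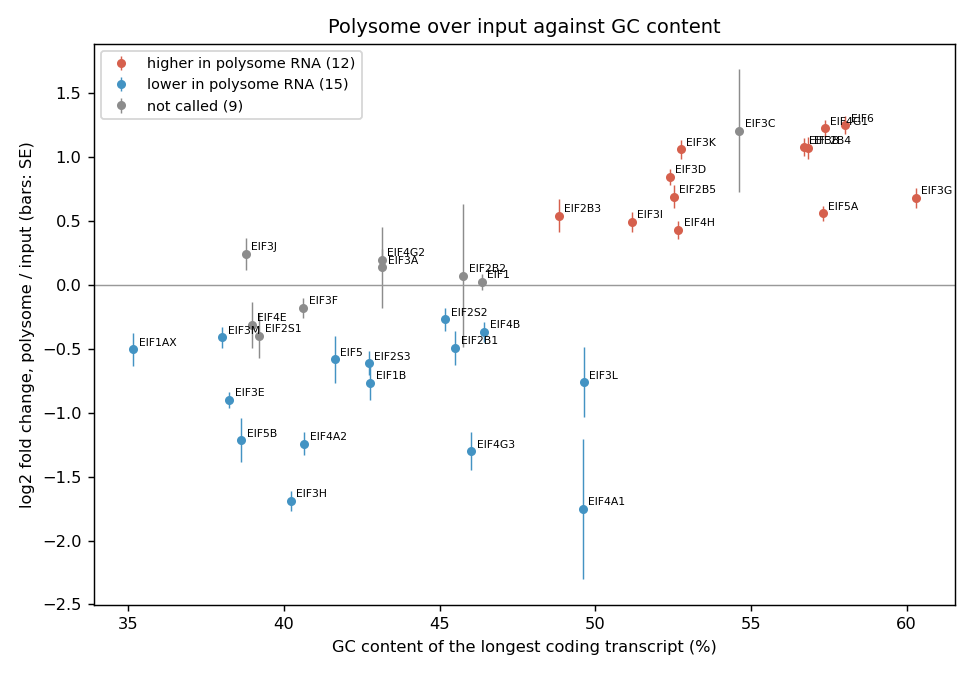
Fitted log2 fold change of polysome over input RNA, with bars for 1 SE, against the GC content of the longest coding transcript in percent, for the 36 genes. The red points of the 12 genes higher in polysome RNA lie at 48.8% GC or more, and the blue points of the 15 lower genes at 49.6% or less.

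Some mRNAs of the translation machinery begin with a C followed by an unbroken run of pyrimidines, a start known as a TOP motif, through which the growth-sensing kinase mTOR controls their translation. Of the 36 members, 30 matched a start window in RefSeq (GRCh38.p14). EIF2S2, EIF3A, EIF3E, EIF3G, EIF3H and EIF3L had no window and could not be searched. The windows were searched on the transcribed strand only for at least 5 pyrimidines in a row whose first base is a C within 5 bases of the annotated start, whatever base precedes it. Such a run was found in 11 of the 30 (36.7%), namely in EIF1, EIF2S3, EIF3C, EIF3D, EIF3F, EIF3J, EIF3K, EIF3M, EIF4A2, EIF4B and EIF4G2. Those of EIF1 and EIF3C, of 5 bases from position -5, end before the annotated start. A run was found in 19.7% of all 35116 windows, in 20.7% of 15842 protein-coding genes and in 73.9% of 69 cytosolic ribosomal protein genes. The 3 longest runs are shown with that of EIF4A2 and with the window of EIF4G1, which holds none. Genes with such a run lay on both sides of 0 in polysome RNA. Each window has 10 bases before the annotated start and 20 from it, and capitals mark the run.
EIF3F, chr11:7987327-7987356, plus strand: cttccgCCTCCTTCTTTCTCgacaagatgg
EIF2S3, chrX:24054946-24054975, plus strand: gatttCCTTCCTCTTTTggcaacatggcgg
EIF3D, chr22:36529147-36529176, minus strand: cgcatgtttCCTCTTTTCCTggtttctcaa
EIF4A2, chr3:186783567-186783596, plus strand: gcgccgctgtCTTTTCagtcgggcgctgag
EIF4G1, chr3:184314596-184314625, plus strand: gcggggagccggaaatggttgtggactacg
Of these, EIF3F was at -0.18, EIF2S3 at -0.61, EIF3D at 0.85, EIF4A2 at -1.24 and EIF4G1 at 1.23 on the log2 scale of polysome over input RNA. The 11 genes with a run had a median log2 fold change of 0.02 with 2 called higher and 4 lower, and the 19 without had a median of 0.07 with 9 higher and 7 lower. In all protein-coding genes tested the medians were -0.12 with a run and -0.11 without. A window without a run says only that these letters are not at the annotated start, since start sites can differ between cells.

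The libraries labelled knockdown were next compared with those labelled control in input RNA. None of the 36 members was called by edgeR, where 0% of all genes were called. At an unadjusted p under 0.05 stood 3 members and 4.51% of all genes, and DESeq2 called 1 higher and limma-voom 0, where DESeq2 called 0.224% of all genes higher and 0.17% lower. The members' median log2 fold change was -0.05, beside 0.00 for all genes. Both libraries labelled knockdown lay above both labelled control for 5 members and below them for 12, while 21.1% and 20.3% of all genes did so. The smallest p belonged to EIF3E, which had 655 and 693.5 CPM in input RNA labelled knockdown, against 545 and 519 CPM in input RNA labelled control. Its groups did not overlap, at a log2 fold change of 0.34 (SE 0.09; edgeR adjusted p = 0.749), and DESeq2 gave 0.32 with an adjusted p of 0.0315. EIF4G2 had 374 and 341 CPM in input RNA labelled knockdown, against 463.5 and 439 CPM in input RNA labelled control, at a log2 fold change of -0.34 (SE 0.12; edgeR adjusted p = 0.985). EIF3B had 386 and 389 CPM in input RNA labelled knockdown, against 481 and 425 CPM in input RNA labelled control, at -0.23 (SE 0.10; edgeR adjusted p = 1). Neither of these 2 genes had overlapping groups.

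In polysome RNA the same comparison also called no member, where 0.879% of all genes were called, 0.248% higher and 0.63% lower. At an unadjusted p under 0.05 stood 9 members and 18.1% of all genes. Limma-voom called 0 members, where it called 0.454% of all genes higher and 1.35% lower. DESeq2 called EIF1B, EIF3E, EIF3H and EIF4A2 higher and EIF4G2 and EIF5B lower, where it called 3.08% of all genes higher and 4.21% lower. Both libraries labelled knockdown lay above both labelled control for 13 members and below them for 12, beside 15.4% and 23.6% of all genes. The members' median was -0.03 against -0.06 for all genes. The 3 smallest p-values belonged to EIF5B, EIF4A2 and EIF3E.

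EIF5B was lowest in the pair of polysome libraries labelled knockdown, at 195 and 228 CPM, against 315 and 618 CPM in those labelled control. The groups did not overlap, and library 2 labelled control lay farther from library 1 of its own label than that one lay from either library labelled knockdown. The log2 fold change was -1.14 (SE 0.24; edgeR adjusted p = 0.0608), and it was -0.57 (adjusted p = 0.130) without polysome library 2 labelled control and -1.55 (adjusted p = 0.0017) without polysome library 1 labelled control. EIF3A had 57.2 and 54.3 CPM in polysome RNA labelled knockdown, against 71.9 and 292 CPM in polysome RNA labelled control. A single library, polysome 2 labelled control, stood apart from the other 3. The log2 fold change was -1.71 (SE 0.46; edgeR adjusted p = 0.105), and it was -0.36 (adjusted p = 0.266) without that library and -2.39 (adjusted p = 1.72e-04) without polysome library 1 labelled control. Against input RNA, at 88.8 and 87.0 CPM in libraries labelled knockdown and 96.2 and 94.0 CPM in libraries labelled control, EIF3A was at 0.14. That value became -0.54 (edgeR adjusted p = 0.0020) without polysome library 2 labelled control and 0.47 (adjusted p = 0.00213) without polysome library 1 labelled control.

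EIF4A2 and EIF3H, both lower in polysome than in input RNA, were higher in the polysome libraries labelled knockdown than in those labelled control without passing the test. EIF4A2 had 77.8 and 89.9 CPM in polysome RNA labelled knockdown, against 54.3 and 60.5 CPM in polysome RNA labelled control, at a log2 fold change of 0.54 (SE 0.12; edgeR adjusted p = 0.0704). EIF3H had 152 and 176 CPM in polysome RNA labelled knockdown, against 128 and 114 CPM in polysome RNA labelled control, at 0.44 (SE 0.11; edgeR adjusted p = 0.0894). EIF3E was at 0.36 (SE 0.09; edgeR adjusted p = 0.0831) in polysome RNA, beside 0.34 in input RNA. EIF4G2 had 429.5 and 348 CPM in polysome RNA labelled knockdown, against 580.1 and 511.5 CPM in polysome RNA labelled control, at -0.49 (SE 0.12; edgeR adjusted p = 0.0860). EIF1B was at 0.69 (adjusted p = 0.108 by edgeR) and EIF3B at -0.32 (adjusted p = 0.137). None of the groups of these 6 genes overlapped. Without polysome library 1 labelled knockdown, edgeR called EIF2B2 (1.48), EIF4A2 (0.65) and EIF3H (0.54) as higher and EIF5 (-1.14), EIF2S1 (-0.89) and EIF4G2 (-0.65) as lower. That fit called 2.21% of all genes higher and 6% lower. It compares 1 library with 2, and the lone library is assumed to vary like the other groups. The lone library, polysome library 2 labelled knockdown, had 165 CPM of FBL, against 498 and 163 CPM in the polysome libraries labelled control. Its gene counts came to 22171255, against 38479423 and 40813826 in the same control libraries. This fit does not separate the label from library number, FBL level or depth, and their part in these calls was not tested.

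**Figure D3:**
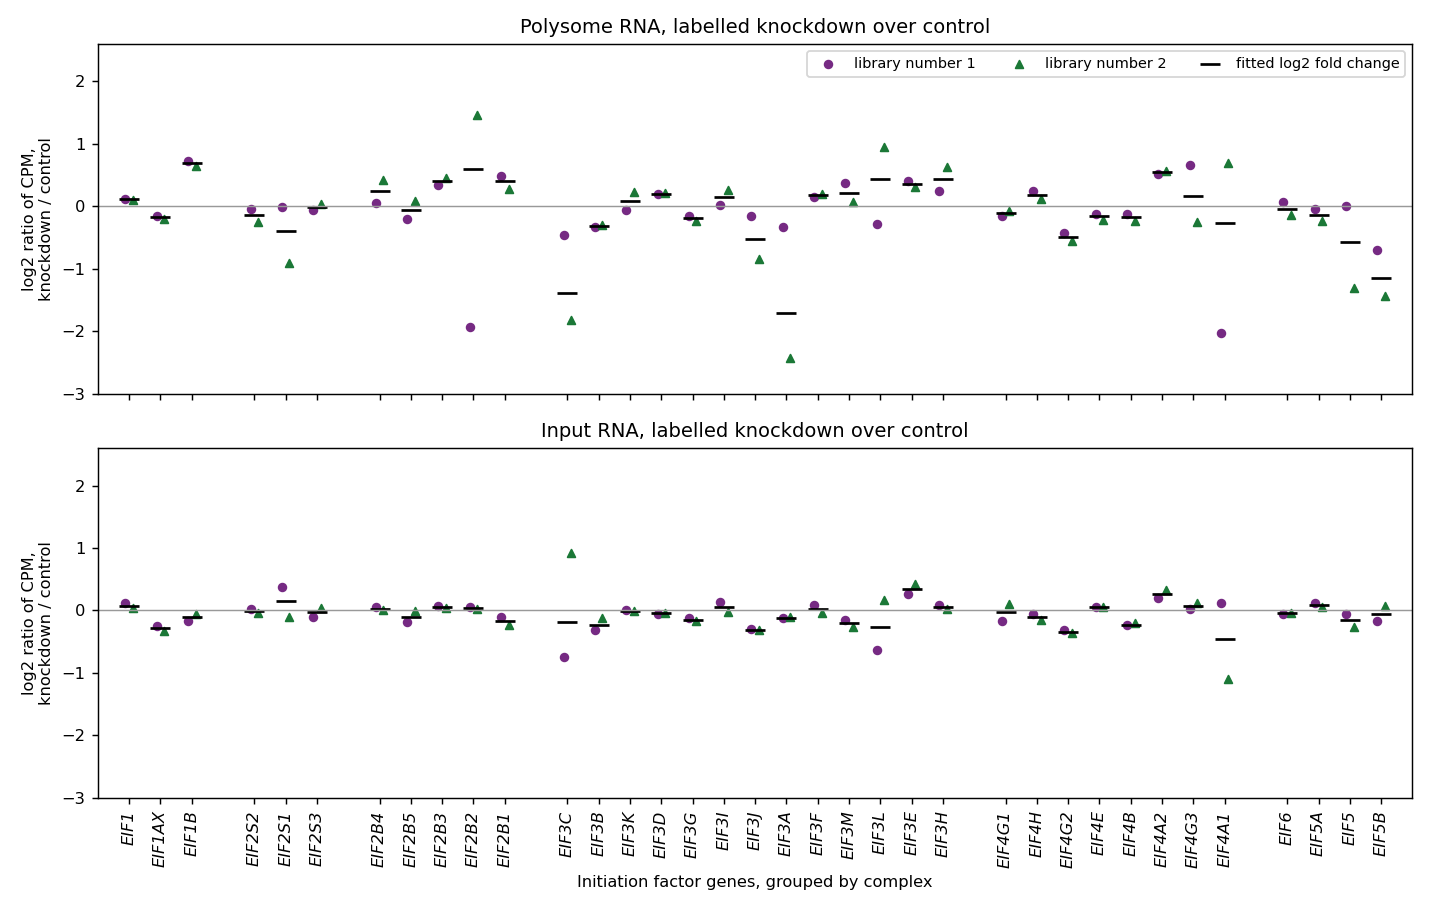
Log2 ratio of CPM in libraries labelled knockdown over those labelled control for the 36 genes, in polysome RNA above and input RNA below, with a point for each library number and a black bar for the fitted log2 fold change. The input points lie close to 0 for all but EIF3C, EIF3L and EIF4A1. In polysome RNA EIF3A, EIF3C and EIF5B reach -2.43, -1.82 and -1.44 in the pair of libraries numbered 2. The thinly covered EIF4A1 and EIF2B2 reach -2.02 and -1.93 in the pair numbered 1, and EIF2B2 reaches 1.46 in the pair numbered 2.

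Whether the share on polysomes differed between the labels was tested as an interaction, the polysome change minus the input change. No member was called by edgeR, where 0% of all genes were called. At an unadjusted p under 0.05 stood 5 members and 6.34% of all genes, and DESeq2 and limma-voom called 0. With the lysate as a block no member was called either, where 0.0545% of all genes were called, and 11 members and 8.53% of all genes had an unadjusted p under 0.05. The interaction of EIF5B was -1.09 (SE 0.34; edgeR adjusted p = 0.766), and -1.01 (adjusted p = 0.0702) with the block. EIF3A was at -1.59 (SE 0.64) and EIF1B at 0.80 (SE 0.27), each at an edgeR adjusted p of 0.766. Over the 8 fits that each left out 1 library, EIF3A ran from -2.28 to -0.25 and EIF5B from -1.49 to -0.52. Both were lowest without polysome library 1 labelled control, where library 2 was the lone polysome library of that label.

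**Figure D4:**
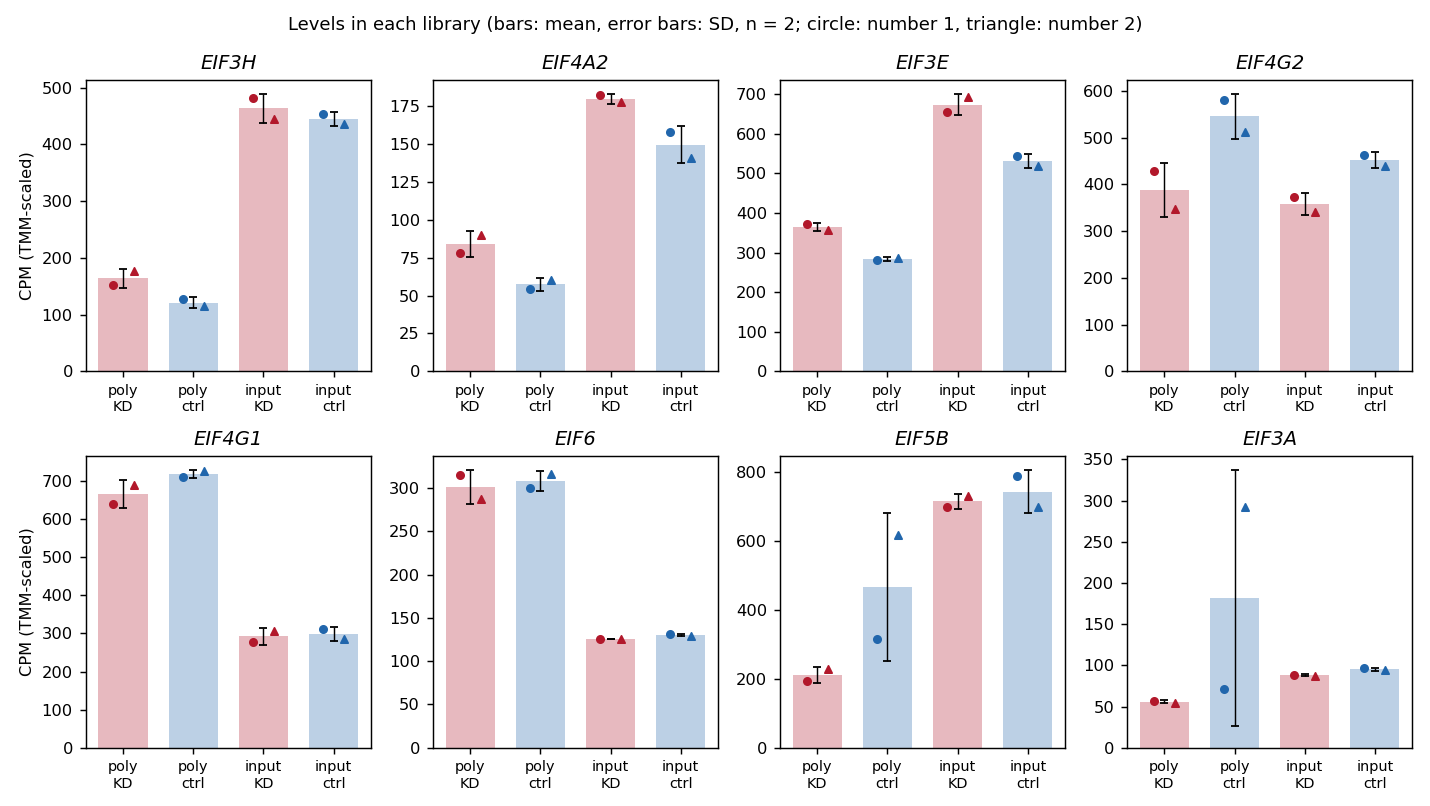
CPM in each library for 8 of the genes, with bars for the mean and error bars for the SD of 2 libraries, polysome before input RNA and labelled knockdown before labelled control within each. EIF4G1 and EIF6 stand higher in polysome RNA, EIF3H, EIF4A2, EIF3E and EIF5B stand lower, and EIF3A is set apart by 292 CPM in polysome library 2 labelled control.

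Libraries with the same label also differed from each other, more in polysome than in input RNA. Among members, the log2 ratio of library 2 to library 1 ran from -0.96 (EIF5) to 3.43 (EIF2B2) in polysome RNA labelled knockdown and from -0.59 (EIF4E) to 2.02 (EIF3A) in polysome RNA labelled control. In input RNA it ran from -0.76 (EIF4A1) to 0.18 (EIF3L) under the knockdown label and from -1.80 (EIF3C) to 0.46 (EIF4A1) under the control label. The medians lay between -0.07 and 0.02 in all 4 groups. Among 8159 genes averaging at least 10 CPM, 1.15% were over 2-fold higher and 2.66% over 2-fold lower in library 2 of polysome RNA labelled knockdown, and 1.45% and 0.503% in that of polysome RNA labelled control.

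The 31 other genes of the initiation pathway, chiefly regulators of eIF2 and eIF4E and further factors, were read in the same fits. By edgeR without a block, none was called between the labels in input RNA, polysome RNA or their difference. At an unadjusted p under 0.05 stood 1, 6 and 3 of them, beside 4.51%, 18.1% and 6.34% of all genes. When edgeR joined libraries by number, 2 of them were lower under the knockdown label in polysome RNA. They were DOHH at -0.53 (adjusted p = 0.0062) and EIF4EBP1 at -0.45 (adjusted p = 0.0267). That fit called 6.38% of all genes. In polysome against input RNA 9 were higher and 11 lower (9 and 13 with the lysate block), beside 20% and 22.8% of all genes. Their median log2 fold change was 0.07, beside -0.22 for all genes. The median of all genes was -0.015 when only those averaging 10 CPM or more were kept. DOHH, which completes the hypusine of eIF5A, had 255 and 205 CPM in polysome RNA labelled knockdown and 374 and 289 CPM in polysome RNA labelled control, against 109 and 94.5 CPM in input RNA labelled knockdown and 131 and 114 CPM in input RNA labelled control. All its polysome values lay above all input values. It was the highest called gene of the list at 1.31 (SE 0.11; edgeR adjusted p = 1.13e-05), and DHPS, which makes the first step of hypusine, was at 0.87 (adjusted p = 5.49e-05 by edgeR). EIF2AK3, the eIF2 kinase PERK, had 1.95 and 0 CPM in polysome RNA labelled knockdown and 2.66 and 2.26 CPM in polysome RNA labelled control, against 6.08 and 4.00 CPM in input RNA labelled knockdown and 7.71 and 6.85 CPM in input RNA labelled control. Its value of -1.93 was the lowest of the list, at an edgeR adjusted p of 0.0540, and the lysate block gave -2.42 at an adjusted p of 0.00174. Among called genes EIF2A, a proposed carrier of initiator tRNA apart from eIF2, was lowest at -1.84 (SE 0.25; edgeR adjusted p = 2.14e-04). It averaged 6.99 ± 1.23 CPM in polysome RNA labelled knockdown and 3.90 ± 2.05 CPM in polysome RNA labelled control, against 19.9 ± 0.674 CPM and 17.6 ± 1.43 CPM in input RNA under the same labels (SD, n = 2 each). The eIF2 phosphatase subunit genes parted, with PPP1R15A higher at 0.67 and PPP1R15B lower at -0.73.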

How the data were processed

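The data are read counts per gene that the authors deposited for 8 RNA-seq libraries. The submitters' processing notes name Trimmomatic 0.38, Bowtie2, HTSeq 0.11.2 and GRCh38. Neither annotation release nor strand setting is given in the sources used here. Members were found by symbol through a table of current names and GENCODE v29. Lines that name no gene, 13.2% to 15.0% of reads, stayed out. Libraries of a group differed by a chi-square of 23.6 to 51.4 per degree of freedom over genes and were all kept. Nothing says that they are separate cultures, so p-values measure only the spread between these libraries. That spread includes a difference in FBL. Its log2 ratio of library 2 to library 1 was -1.59 and -1.61 in polysome RNA labelled knockdown and control. In input RNA under the same labels it was -1.59 and -1.505. Fits with neither the number nor the lysate as a block count such differences as spread between replicates. The remaining spread may be technical.

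The deposited counts went into edgeR 4.0.16 (R 4.3.3; TMM, filterByExpr, quasi-likelihood F test) as 8 libraries in 4 groups, which leaves 4 residual degrees of freedom, or 2 with the lysate block. Adjusted p is Benjamini-Hochberg over 16503 genes, called under 0.05. CPM use TMM-scaled library sizes, and the SE of a log2 fold change comes from the F statistic. Per the protocols, input and polysome RNA of a label and number come from the same cleared lysate, which pairs them. Their deviations from the group means correlated at 0.0659 in lysates labelled knockdown and 0.0732 in those labelled control. Alternatives were other normalizations and filters, DESeq2 1.42.0, limma 3.58.1 with voom, leaving out each library and, chosen after seeing the data, a correction for GC content and length (mgcv 1.9.3) and leaving out the 5 members with uncertain counts. The scripts were tested on simulated counts. Values in all 8 libraries are given for the 3 members with the smallest p in each knockdown comparison, the highest and lowest polysome over input value of each complex, EIF3H, EIF4A2 and EIF4G1. EIF3A and the group means of other genes were added after their values were seen. The members and lists were chosen with earlier results of these data known.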

Additional observations from a re-analysis of the deposited data

How the results depend on the processing

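Calls were counted once for each member in each alternative setting. On that count 1 call was gained in input RNA, 31 in polysome RNA and 4 for the interaction. For polysome against input RNA 29 calls were gained, 34 were lost and 3 were in the other direction. In input RNA DESeq2 called 1 member, and the members' median ran from -0.12 to -0.012 with libraries left out. In polysome RNA the members called by label were 7 without a filter (4.95% of all genes called), 3 at a mean of at least 10 CPM (3.98%), 6 with DESeq2 (7.29%), 7 with the library number as a replicate block (6.38%), and 0 to 6 with libraries left out (0% to 8.21%). Across labels that block joins libraries by number (correlations 0.0190 and 0.0897), and FBL was lower in library 2 of every group. The SE of FBL in polysome RNA was 0.074 with the block and 0.69 without. With the block EIF3E (0.36), EIF3H (0.44) and EIF4A2 (0.54) were called higher. EIF3A (-1.56), EIF3B (-0.32), EIF4G2 (-0.49) and EIF5B (-1.11) were called lower. The members' median by label in polysome RNA was 0.018 with relative log expression or DESeq2, 0.056 with upper quartile and 0.044 without a filter. It was 0.067 at 10 CPM, 0.045 with the polysome libraries alone, 0.088 without the uncertain genes and -0.023 to 0.071 with libraries left out. For the interaction, 2 members were called without a filter (0.244% of all genes). The other calls counted came from a fit that leaves 1 library in a group. The median of the interaction was 0.12 with relative log expression, upper quartile or DESeq2, and 0.14 without a filter and at 10 CPM. It was -0.018 with the GC correction, -0.026 with it and the replicate block, and -0.013 to 0.19 with libraries left out. For polysome against input RNA the median was -0.041 with relative log expression or DESeq2, -0.18 at 10 CPM or without the uncertain genes, -0.22 with limma-voom or the lysate as replicate block, 0.20 with the GC correction, 0.18 with it and the block, and -0.20 to -0.060 with libraries left out. The median of all genes in this comparison was -0.015 at 10 CPM. Lower calls were 6 with the GC correction and 7 with it and the block. Among called values the sign turned for EIF1AX (0.32 in both GC fits), EIF2S2 (0.034 in both) and EIF3M (0.20, and 0.19 with the block). With libraries left out EIF2B2 ran from -1.20 to 0.51 and EIF3A from -0.54 to 0.47, lowest without polysome library 2 labelled knockdown for EIF2B2 and without polysome library 2 labelled control for EIF3A. The cause was not tested. Low counts limit EIF2B2, EIF3C, EIF3L and EIF4A1, and 2 libraries a group limit every comparison of the labels.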
